A study of Mus musculus with 4 samples.

Results

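The genes described here are the liver X receptors (LXRs) and a set of genes for cholesterol efflux and lipid handling. They are the receptors Nr1h2 and Nr1h3, the exporters Abca1 and Abcg1, the lipid carriers Apoe and Pltp, the enzymes Lpcat3, Soat1 and Smpdl3a, and the small GTPase Arl4c. They were found by symbol, all 10 were present, and they are 10 of the 32285 genes in the files. Brain cells of C57BL6 mice were sorted for the endothelial surface protein CD31 and sequenced one by one from the 3 prime end of their transcripts. Mice ate a diet with PLX5622 at 1200 ppm, an inhibitor of the CSF1 receptor that removes most microglia, or a control diet, for 1 month each. Each diet gave 2 libraries, and 3 mice were used across the 2 libraries of a diet. Which mouse went into which library is not given in the labels, so p-values refer to spread between libraries, not between mice. With 2 libraries per diet, the tests estimate a gene's spread partly from the other genes tested. A small p-value therefore does not rest on the spread of that gene alone. Age and sex are not stated in the labels used here, and both diets share the strain, the sort and the removal of meninges, cerebellum and olfactory bulbs.

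LXRs are nuclear receptors that bind oxysterols, which are oxidised forms of cholesterol, and pair with retinoid X receptors on DNA. Cells loaded with cholesterol thereby switch on genes that move it out. ABCA1 passes cholesterol and phospholipid to lipid-poor apolipoproteins and ABCG1 passes it to lipoprotein particles. APOE, made in the brain mainly by astrocytes and by microglia, is the chief carrier of sterol between brain cells. The endothelium of brain vessels seals the blood-brain barrier, so the brain makes its own cholesterol and clears it locally.

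Abca1 was the member with an entry in the promoter table that changed with diet, and its promoter is shown for that reason. The gene lies at chr4:53030787-53159895 on the minus strand of GRCm38, in the GENCODE M21 annotation. The RefSeq window of build GRCm38.p6 from 250 bases before to 50 bases after its start is chr4:53159846-53160145, minus strand. Capitals mark a stretch that, read on the opposite strand, resembles the DR4 element on which LXR and its partner sit, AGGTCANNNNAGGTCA.
Abca1: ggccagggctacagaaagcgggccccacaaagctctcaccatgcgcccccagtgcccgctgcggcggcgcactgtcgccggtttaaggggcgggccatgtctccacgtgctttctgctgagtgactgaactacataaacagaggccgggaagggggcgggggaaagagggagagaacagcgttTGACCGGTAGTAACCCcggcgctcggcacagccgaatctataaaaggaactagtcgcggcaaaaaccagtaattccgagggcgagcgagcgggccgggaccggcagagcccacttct
DR4 element: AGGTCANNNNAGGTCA
opposite strand of the capitals: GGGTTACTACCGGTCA
The stretch lay between 67 and 52 bases before the start and differed from the element by A1G, C5T and A11C, counted from 1 at the 5′ end of the element. Matches with up to 3 mismatches on either strand were found in 21.9% of 32817 promoters, so such a match is common. The limit of 3 was chosen after the sequence was seen. With CACGTG, the E-box letters, the window held 1 match, between 147 and 142 bases before the start, and 7.15% of promoters hold that motif. Of the 10 members 8 had a promoter in the table, with 11 windows in all. Arl4c was the other member with DR4 matches at this limit, and the exporter Abcg1, at chr17:31057675-31117988 on the plus strand of GRCm38, had no entry.

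After filters at 1000 UMIs (transcript molecules), 500 genes and 10% mitochondrial UMIs, 3989 and 3670 cells remained in the PLX5622 libraries and 1696 and 5509 in the control libraries. Total UMIs per library were between 11186648 and 38600208, and kept cells had a median of 3834 to 5922 UMIs. Between 1 and 6 cell barcodes were shared by any pair of libraries. The endothelial-like class had 13267 cells, of which 1438 were arterial-like, 10266 capillary-like and 1210 venous-like. Pericyte-like cells numbered 300 and smooth muscle-like cells 227. All 8 endothelial markers were detected in the endothelial-like sums, and their summed level was 22409 to 22931 CPM in the PLX5622 libraries and 22442 to 22643 CPM in the control libraries. CPM is UMIs of a gene per 1000000 UMIs of that class in a library. Microglial markers summed to 23.8 and 27.3 CPM in the endothelial-like sums of the PLX5622 libraries, with 8 of 12 at 0 in each, and to 28.3 and 26.5 CPM in those of the control libraries, with 2 at 0 in each.

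Both exporters were lower on the PLX5622 diet in endothelial-like cells, and no other member passed the test there. Abca1 stood at 42.7% and Abcg1 at 36.1% of the mean control level. Of the 10 members 2 were called lower and 0 higher, at an adjusted p under 0.05 (edgeR quasi-likelihood test on summed UMIs, Benjamini-Hochberg over 12797 genes). Across all genes tested 0.399% were called lower and 0.813% higher, or 1.21% in all. The median log2 fold change of the 10 members was -0.08, beside 0.00 for all genes tested.

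Abca1 had 20.4 and 21.6 CPM in the PLX5622 libraries, against 57.8 and 40.8 CPM in the control libraries. The diets did not overlap, and the control libraries were further apart than the PLX5622 libraries. The means were 21.03 ± 0.842 CPM and 49.3 ± 12.03 CPM (SD, n = 2 libraries each), from 776 UMIs on the PLX5622 diet and 1809 UMIs on the control diet. The log2 fold change was -1.14 ± 0.12 (SE), or 2.21-fold lower, with an edgeR adjusted p of 3.72e-05.

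Abcg1 had 11.4 and 7.38 CPM in the PLX5622 libraries, against 29.4 and 22.5 CPM in the control libraries. Again both PLX5622 libraries lay below both control libraries. The means were 9.37 ± 2.82 CPM and 25.9 ± 4.85 CPM (SD, n = 2 each). Its log2 fold change was -1.42 ± 0.17 (SE), or 2.67-fold lower, with an edgeR adjusted p of 0.000428.

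Other cell types left traces in these sums that differed by diet. Pericyte markers summed to 335 and 282 CPM in the endothelial-like sums of the PLX5622 libraries and to 226 and 232 CPM in those of the control libraries. Markers of fenestrated endothelium summed to 73.9 and 79.7 CPM on the PLX5622 diet and to 125 and 134 CPM on the control diet. Choroid plexus markers summed to 37.7 and 46.4 CPM on the PLX5622 diet and to 49.3 and 125 CPM on the control diet. Without fenestrated-like cells and without droplets that held mural or astrocyte markers, the log2 fold change was -1.15 for Abca1 and -1.44 for Abcg1, with edgeR adjusted p-values of 7.68e-06 and 0.00181.

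**Figure D1:**
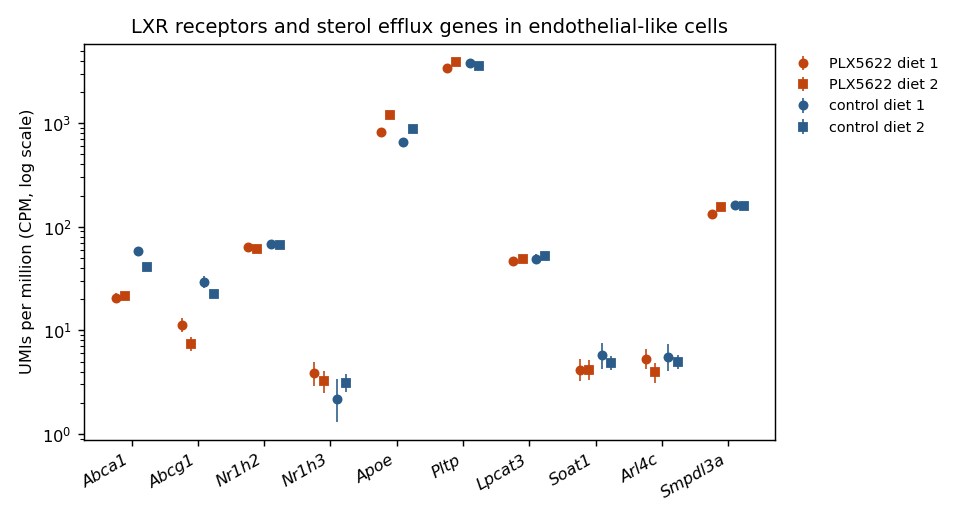
CPM (log axis) of the 10 genes in the endothelial-like sum of each library, PLX5622 diet in red left of control diet in blue, with exact 95% Poisson intervals that cover counting error only. Abca1 (20.4 and 21.6 against 57.8 and 40.8 CPM) and Abcg1 (11.4 and 7.38 against 29.4 and 22.5 CPM) stand apart by diet.

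Along the vessel tree the exporters had different orders. Of the 5 classes in control mice, mean Abca1 was highest in arterial-like cells, and mean Abcg1 was lowest there and highest in venous-like cells. These levels are descriptions, since zones were made from the same cells, although the members and other LXR genes were kept out of the clustering. In control mice Abca1 averaged 70.4 ± 28.2 CPM in arterial-like, 55.0 ± 4.72 CPM in venous-like, 44.5 ± 10.96 CPM in capillary-like, 34.9 ± 0.735 CPM in pericyte-like and 20.9 ± 4.57 CPM in smooth muscle-like cells (SD, n = 2 each). The top of that order rested on control library 1, with 90.3 CPM in arterial-like and 58.4 CPM in venous-like cells. Control library 2 had 50.5 CPM in arterial-like and 51.7 CPM in venous-like cells, so those neighbours did not differ beyond their spread. Venous-like cells were above capillary-like cells within each of the 4 libraries, although the control ranges overlapped. Capillary-like against pericyte-like cells was split, with each higher in 2 of the 4 libraries. Pericyte-like and smooth muscle-like cells did not overlap in control libraries, but each of those values rested on 6 to 25 UMIs. Some of these mural droplets also carried endothelial RNA, as given below, so the mural ranks are those of whole classes only. Within each of the 4 libraries arterial-like cells were above capillary-like cells.

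Abcg1 averaged 5.43 ± 0.308 CPM in arterial-like, 28.1 ± 5.38 CPM in capillary-like and 32.8 ± 4.24 CPM in venous-like cells of control mice, with 14.3 ± 10.2 CPM in pericyte-like and 10.1 ± 2.35 CPM in smooth muscle-like cells (SD, n = 2 each). Arterial-like cells were the lowest of the 5 classes in all 4 libraries, while venous-like and capillary-like cells did not differ beyond their spread. Some mural droplets also carried endothelial RNA, by the split given below for Nr1h3. The other droplets held 0 of 10 control UMIs in pericyte-like and 5 of 11 in smooth muscle-like cells. On the PLX5622 diet they held 3 of 7 and 3 of 4 UMIs. The rank of arterial-like cells below mural cells is therefore that of whole classes only. The capillary-like cells held 3 clusters, named here by number. Abcg1 had 14.9 and 15.1 CPM in cluster 0 of the control libraries, the cluster with the weakest venous markers, 35.0 and 28.0 CPM in cluster 1, and 51.1 and 35.2 CPM in cluster 2. Abca1 in the same libraries had 59.6 and 41.3 CPM in cluster 0, 36.9 and 30.7 CPM in cluster 1, and 50.7 and 33.8 CPM in cluster 2. Thus cluster 0 was the lowest of the 3 for Abcg1 and the highest for Abca1 in both control libraries. Abcg1 in cluster 2, at a control mean of 43.2 CPM, was above the venous-like mean of 32.8 CPM.

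**Figure D2:**
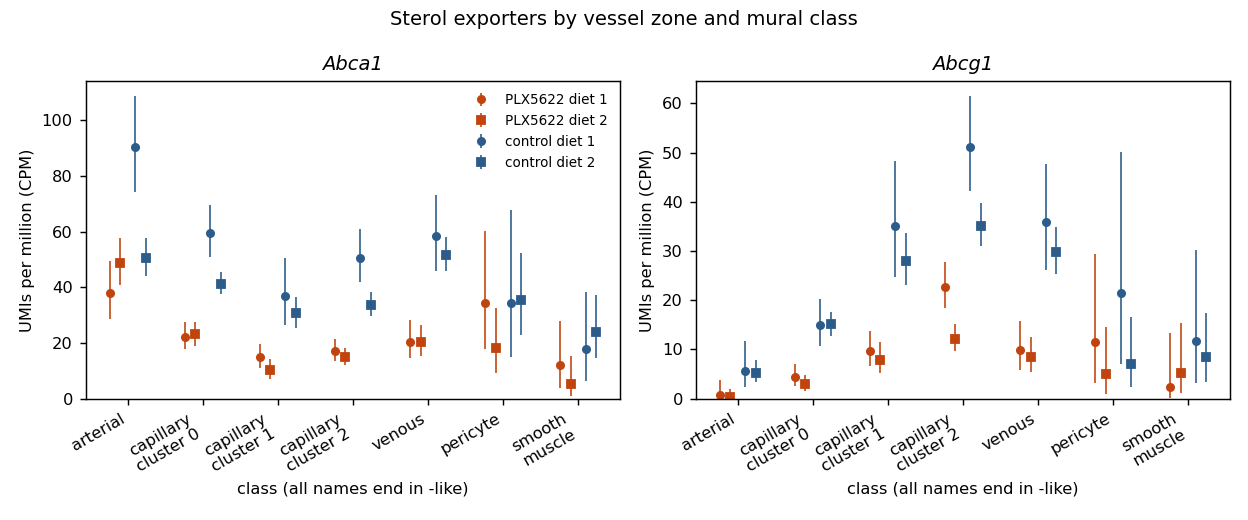
Abca1 and Abcg1 in CPM by class and library, PLX5622 diet in red left of control diet in blue, with exact 95% Poisson intervals that cover counting error only. Abca1 peaks in arterial-like cells of control library 1 (90.3 CPM), while Abcg1 is lowest in arterial-like cells and peaks in capillary cluster 2 (51.1 and 35.2 CPM on the control diet).

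The diet difference was present in capillary-like and venous-like cells for both exporters. Of 10 members tested in capillary-like cells 2 were called lower, where 0.444% of all genes were, and of 9 tested in venous-like cells 2 were called lower, where 0.46% of all genes were. Capillary-like Abca1 was at 18.3 and 16.6 CPM on the PLX5622 diet and 52.3 and 36.8 CPM on the control diet. The diets did not overlap, and the log2 fold change was -1.26 ± 0.13 (SE, edgeR adjusted p = 1.26e-05). Venous-like Abca1 was at 20.5 and 20.3 CPM on the PLX5622 diet and 58.4 and 51.7 CPM on the control diet. That is a log2 fold change of -1.38 ± 0.19 (SE, edgeR adjusted p = 7.43e-10), with libraries of a diet close to each other. Zone markers in the venous-like sums also moved with diet. Venous markers summed to 2938 and 3025 CPM on the PLX5622 diet and 1655 and 1738 CPM on the control diet, and capillary markers to 6892 and 7287 CPM on the PLX5622 diet and 8310 and 8457 CPM on the control diet. Their part in the venous-like results was not tested.

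Capillary-like Abcg1 was at 12.8 and 8.07 CPM on the PLX5622 diet and 31.9 and 24.3 CPM on the control diet, a log2 fold change of -1.37 ± 0.18 (SE, edgeR adjusted p = 0.000365). Venous-like Abcg1 was at 9.98 and 8.42 CPM on the PLX5622 diet and 35.8 and 29.8 CPM on the control diet, a log2 fold change of -1.79 ± 0.26 (SE, edgeR adjusted p = 7.61e-09). Neither exporter's difference was shown to vary between venous-like and capillary-like cells. The interaction was -0.18 ± 0.21 (log2, SE) for Abca1 and -0.40 ± 0.29 for Abcg1, with edgeR adjusted p-values of 0.988 and 0.918, where 0.515% of all genes were called.

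In arterial-like cells Abca1 did not pass the test. They held 38.0 and 48.7 CPM on the PLX5622 diet and 90.3 and 50.5 CPM on the control diet. Both PLX5622 libraries were below both control libraries, but PLX5622 library 2 and control library 2 were close. The log2 fold change was -0.52 ± 0.20 (SE, edgeR adjusted p = 0.513). Over 15 alternatives it ranged from -0.96 to -0.19, and 1 passed, without control library 2 (-0.96, edgeR adjusted p = 0.00139); without control library 1 it was -0.19. Control library 1, which had the 90.3 CPM of Abca1, also stood apart in zone markers. Arterial markers in the arterial-like sums were at 3530 and 3642 CPM on the PLX5622 diet and 2377 and 3425 CPM on the control diet, and capillary markers at 6558 and 7026 CPM on the PLX5622 diet and 7889 and 6978 CPM on the control diet. Their part in the result was not tested. Of 9 members tested there edgeR called 0, where 0.294% of all genes were called. DESeq2 called 0 and limma-voom called 1, Abcg1. At an unadjusted p under 0.05 there were 3 members by edgeR, 2 by DESeq2 and 3 by limma-voom. Of all 9850 genes tested 639, 167 and 699 were under that limit by the same tools. The difference itself was tested within libraries, by an interaction term fitted to the 12 zone sums. The diet effect on Abca1 in arterial-like cells minus that in capillary-like cells was 0.78 ± 0.18 (log2, SE, edgeR adjusted p = 0.0142). Of all genes 0.39% were called in that comparison, and Abca1 was the only member among them. Without PLX5622 library 2 the value was 0.45 (adjusted p = 0.970), and without control library 2 it was 0.56 (adjusted p = 0.4998).

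Abcg1 in arterial-like cells rested on 1 UMI in each PLX5622 library, against 7 and 23 UMIs in the control libraries. The ratio of the summed rates was 0.0897 with a 95% interval from 0.0104 to 0.353 for counting error. The edgeR adjusted p was 0.0572, and it ranged from 0.00640 to 1.00 over 12 alternatives, of which 5 passed. The difference from capillary-like cells was -2.01 ± 0.86 (log2, SE, edgeR adjusted p = 0.744), so the depth did not show whether the arterial difference is of another size.

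**Figure D3:**
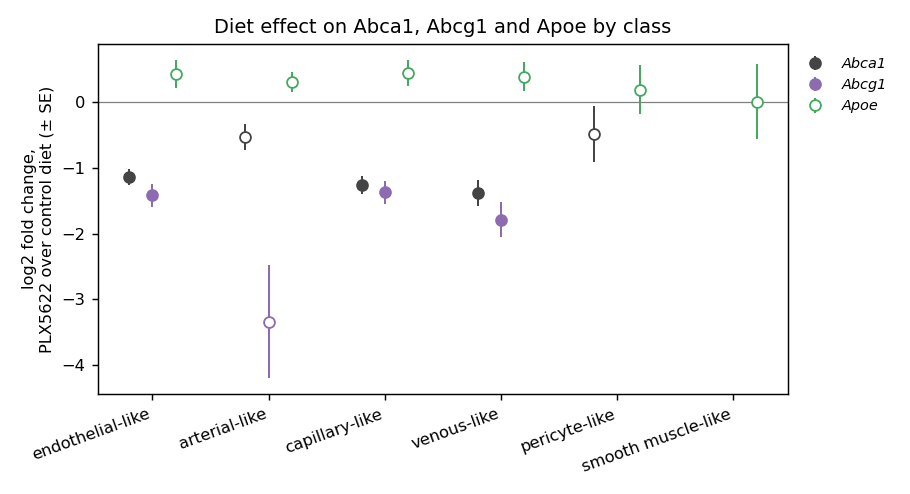
Log2 fold change of PLX5622 over control diet, with SE, for Abca1, Abcg1 and Apoe in each class where the gene passed the filter on low counts; filled points have an edgeR adjusted p under 0.05. Abca1 and Abcg1 lie below -1 in endothelial-like, capillary-like and venous-like cells, Abca1 lies at -0.52 in arterial-like cells, and Apoe lies at or above 0 with no filled point.

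The mural cells, pericytes and smooth muscle, held too few UMIs to resolve the exporters. Abca1 had 34.4 and 18.2 CPM in pericyte-like cells on the PLX5622 diet and 34.3 and 35.4 CPM on the control diet. The diets overlapped, and the log2 fold change was -0.48 ± 0.43 (SE, edgeR adjusted p = 0.999). Its difference from the endothelial-like effect was 0.59 ± 0.46 (log2, SE, adjusted p = 1.00), with bounds of 2 SE at -0.34 and 1.52. By the split given below for Nr1h3, the 118 pericyte-like droplets with few endothelial marker UMIs held 9 Abca1 UMIs on the PLX5622 diet. That was 37.1 ± 8.49 CPM, against 35.7 ± 50.5 CPM from 12 UMIs on the control diet (SD, n = 2 libraries each). The 182 others averaged 22.4 ± 10.9 CPM on the PLX5622 diet and 31.8 ± 10.8 CPM on the control diet. The part of endothelial RNA in the mural Abca1 results was not tested. In smooth muscle-like cells Abca1 had 5 and 3 UMIs on the PLX5622 diet and 6 and 20 UMIs on the control diet and did not pass the filter on low counts. Its difference from the endothelial-like effect there was -0.30 ± 0.63 (log2, SE, edgeR adjusted p = 0.997). The smooth muscle-like droplets with few endothelial marker UMIs held 4 of 8 Abca1 UMIs on the PLX5622 diet. On the control diet they held 10 of 26. Abcg1 had between 1 and 7 UMIs per library in either mural class and did not pass the filter in either. Its difference from the endothelial-like effect was 0.88 ± 0.78 in pericyte-like and 0.22 ± 0.90 in smooth muscle-like cells (log2, SE, edgeR adjusted p = 1.00 and 0.997). In these mural differences 0.0% of all genes were called. Of 7 members tested in pericyte-like cells and 6 in smooth muscle-like cells edgeR called 0, where 0.0% of all genes were called in each class. Soat1 and Arl4c in pericyte-like cells, Nr1h3 and Arl4c in smooth muscle-like cells, and Nr1h3 in arterial-like and venous-like cells also missed the filter on low counts. By unadjusted p under 0.05, edgeR gave 314 genes in pericyte-like and 291 in smooth muscle-like cells, among them 0 members in each. At adjusted p DESeq2 and limma-voom also called 0 genes in each class. At an unadjusted p under 0.05 limma-voom gave 1 member in pericyte-like cells, among 376 of 6925 genes.

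Neither receptor passed the test in any class where it was tested. Nr1h2, which encodes LXR beta, had 63.6 and 61.0 CPM in endothelial-like cells on the PLX5622 diet and 68.9 and 66.2 CPM on the control diet. The log2 fold change was -0.07 ± 0.09 (SE, edgeR adjusted p = 0.853). Its level was similar across classes, with control means of 67.1 ± 3.70 CPM in arterial-like, 66.8 ± 1.35 CPM in capillary-like and 69.2 ± 4.49 CPM in venous-like cells (SD, n = 2 each). On the PLX5622 diet the libraries had 63.8 and 65.9 CPM in arterial-like, 63.5 and 59.9 CPM in capillary-like and 68.2 and 62.1 CPM in venous-like cells. Pericyte-like cells had 88.9 and 79.4 CPM on the PLX5622 diet and 60.1 and 76.4 CPM on the control diet. In smooth muscle-like cells the values were 74.3 and 57.8 CPM on the PLX5622 diet and 61.8 and 71.1 CPM on the control diet, so the diets overlapped there. Nr1h3, which encodes LXR alpha, was scarce in endothelial-like cells, at 3.85 and 3.22 CPM on the PLX5622 diet and 2.19 and 3.09 CPM on the control diet (log2 fold change 0.35 ± 0.25, SE, edgeR adjusted p = 0.683).

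Of the 5 classes, Nr1h3 was highest in pericyte-like cells in all 4 libraries. It had 34.4 and 41.3 CPM there on the PLX5622 diet and 25.8 and 34.0 CPM on the control diet, from 6 to 25 UMIs per library. Smooth muscle-like cells held 0 to 4 UMIs per library. Many pericyte-like droplets also carried endothelial RNA, since 182 of 300 had at least 20 endothelial marker UMIs per 10000. In the other 118 droplets Nr1h3 had 68.9 and 85.4 CPM on the PLX5622 diet and 67.0 and 71.4 CPM on the control diet, above the 17.2 to 29.4 CPM of the 182. The values of the 118 rested on 19 UMIs on the PLX5622 diet and 14 on the control diet. Control library 1 had only 9 of these droplets. Fibroblast markers were part of the pericyte-like cluster too, with all 7 detected and sums of 1299 and 410 CPM on the PLX5622 diet and 395 and 988 CPM on the control diet. Their part in the Nr1h3 level was not tested.

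Neither carrier passed the test in any class. Apoe was abundant in endothelial-like cells, at 816 and 1210 CPM on the PLX5622 diet and 662 and 884 CPM on the control diet. The diets overlapped, and in each diet library 2 was above library 1. The log2 fold change was 0.43 ± 0.22 (SE) and did not pass (edgeR adjusted p = 0.540). The 3 zones had means of 897 to 1056 CPM on the PLX5622 diet and 705 to 800 CPM on the control diet, with log2 fold changes of 0.30 in arterial-like, 0.44 in capillary-like and 0.39 in venous-like cells, none past the threshold. Without control library 2 the adjusted p was 0.00147 in arterial-like cells and 4.87e-06 in venous-like cells, and with a replicate block the venous value was 0.0171.

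Apoe is abundant in other brain cells, so the share that free RNA could supply was estimated. Free RNA, estimated from barcodes under 100 UMIs, could account for 1.93% and 2.26% of the endothelial-like Apoe UMIs in the PLX5622 libraries and 2.66% and 2.19% in the control libraries. The 1% of endothelial-like cells with the most Apoe held 5.78% and 5.15% of it in the PLX5622 libraries and 6.86% and 5.64% in the control libraries. Smooth muscle-like cells were low, at 50.3 and 82.3 CPM on the PLX5622 diet and 26.5 and 94.0 CPM on the control diet. Free RNA, at the percentage estimated in endothelial-like cells, could account for 20.6% to 66.5% of that. These cells were split by endothelial marker UMIs as given above for pericyte-like cells. The 200 of 227 with few averaged 30.2 CPM of Apoe on the PLX5622 diet and 16.4 CPM on the control diet. They held 29 of 68 Apoe UMIs on the PLX5622 diet and 14 of 87 on the control diet. Pericyte-like cells had 1359 and 1414 CPM on the PLX5622 diet and 777 and 1659 CPM on the control diet. A single cell held 46.4% of that Apoe in control library 1, and 2 cells held 46.7% in control library 2.

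Pltp, the phospholipid transfer protein that moves lipid between lipoproteins, was abundant in endothelial-like cells. It had 3431 and 3869 CPM on the PLX5622 diet and 3793 and 3600 CPM on the control diet, with a log2 fold change of 0.03 ± 0.15 (SE, edgeR adjusted p = 0.972). The diets overlapped, and the sign turned to -0.018 with library totals in place of normalization factors. Arterial-like cells had 2908 and 3542 CPM on the PLX5622 diet and 3148 and 3146 CPM on the control diet. Capillary-like cells (3524 to 3942 CPM per library) and venous-like cells (3386 to 4022 CPM) overlapped these values, and within each of the 4 libraries arterial-like cells were the lowest of the zones. Pericyte-like cells had 2024 and 2770 CPM on the PLX5622 diet and 2890 and 2320 CPM on the control diet, and many of these droplets carried endothelial RNA, as given above for Nr1h3. The 118 droplets with few endothelial marker UMIs averaged only 312 ± 34.4 CPM of Pltp on the PLX5622 diet. On the control diet they averaged 285 ± 261 CPM (SD, n = 2 libraries each), so the control libraries were far apart. The 182 others averaged 3154 CPM on the PLX5622 diet and 3099 CPM on the control diet. Smooth muscle-like cells had 232 and 177 CPM on the PLX5622 diet and 112 and 485 CPM on the control diet. Free RNA, at the percentage estimated in endothelial-like cells, could account for 8.996% to 58.4% of that. The 200 of 227 droplets with few endothelial marker UMIs averaged 52.7 CPM on the PLX5622 diet and 29.4 CPM on the control diet. They held 50 of 198 Pltp UMIs on the PLX5622 diet and 25 of 440 on the control diet. CPM here counts transcript ends and is set between classes for 1 gene, not between genes per length.

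Neither the remaining enzymes nor the GTPase passed the test in any class where they were tested. Lpcat3, which remodels phospholipids with polyunsaturated chains, had 46.5 and 48.9 CPM in endothelial-like cells on the PLX5622 diet and 49.3 and 52.4 CPM on the control diet (log2 fold change -0.06 ± 0.09, SE, edgeR adjusted p = 0.889). The zones had 45.5 to 62.1 CPM per library on the PLX5622 diet and 46.0 to 64.9 CPM on the control diet, so the diets overlapped, and venous-like cells were the highest of the zones in all 4 libraries. Pericyte-like cells had 37.3 and 28.1 CPM on the PLX5622 diet and 64.4 and 51.0 CPM on the control diet. Smooth muscle-like cells had 43.1 and 52.5 CPM on the PLX5622 diet and 58.8 and 83.2 CPM on the control diet. In these mural classes the log2 fold changes were -0.77 ± 0.37 and -0.58 ± 0.30 (SE), with edgeR adjusted p-values of 0.999 and 0.997.

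Smpdl3a, a secreted phosphodiesterase related to acid sphingomyelinase, followed the vessel tree. In every library it was highest in arterial-like, lower in capillary-like and lowest in venous-like cells. Arterial-like cells had 211 and 209 CPM on the PLX5622 diet and 213 and 213 CPM on the control diet. Capillary-like cells had 130 and 155 CPM on the PLX5622 diet and 161 and 153 CPM on the control diet. Venous-like cells had 99.8 and 113 CPM on the PLX5622 diet and 124 and 128 CPM on the control diet. Pericyte-like cells had 86.0 and 159 CPM on the PLX5622 diet and 107 and 116 CPM on the control diet, and smooth muscle-like cells had 8.75 to 28.9 CPM per library. The pericyte-like droplets with few endothelial marker UMIs averaged 48.7 ± 7.98 CPM on the PLX5622 diet, from 12 UMIs. On the control diet they averaged 58.4 ± 35.2 CPM, from 15 UMIs (SD, n = 2 libraries each). The endothelial-like log2 fold change was -0.10 ± 0.10 (SE, edgeR adjusted p = 0.813).

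Soat1, which esterifies cholesterol for storage in droplets, was low in endothelial-like cells. It had 4.18 and 4.16 CPM on the PLX5622 diet and 5.76 and 4.84 CPM on the control diet (log2 fold change -0.27 ± 0.20, SE, edgeR adjusted p = 0.695). Arterial-like cells had 5.43 and 7.32 CPM on the PLX5622 diet and 7.26 and 7.25 CPM on the control diet. Mural levels were above these, with 20.1 and 18.2 CPM in pericyte-like cells on the PLX5622 diet and 17.2 and 8.49 CPM on the control diet. Those pericyte-like values rested on 4 to 11 UMIs per library, and in control library 2 the arterial-like value was close, at 7.25 CPM. Smooth muscle-like cells were at 11.98 and 15.8 CPM on the PLX5622 diet and 26.5 and 22.9 CPM on the control diet, with a log2 fold change of -0.73 ± 0.54 (SE, adjusted p = 0.997). Arl4c, a GTPase of the cell membrane, had 5.29 and 3.92 CPM in endothelial-like cells on the PLX5622 diet and 5.53 and 4.96 CPM on the control diet (log2 fold change -0.15 ± 0.21, SE, edgeR adjusted p = 0.871). Arterial-like cells had 10.9 and 4.76 CPM of it on the PLX5622 diet and 4.03 and 7.25 CPM on the control diet. In endothelial-like cells 6 of the 10 members had both PLX5622 libraries below both control libraries, as did 25.8% of all genes, and 1 had both above, as did 15.1% of all genes.

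**Figure D4:**
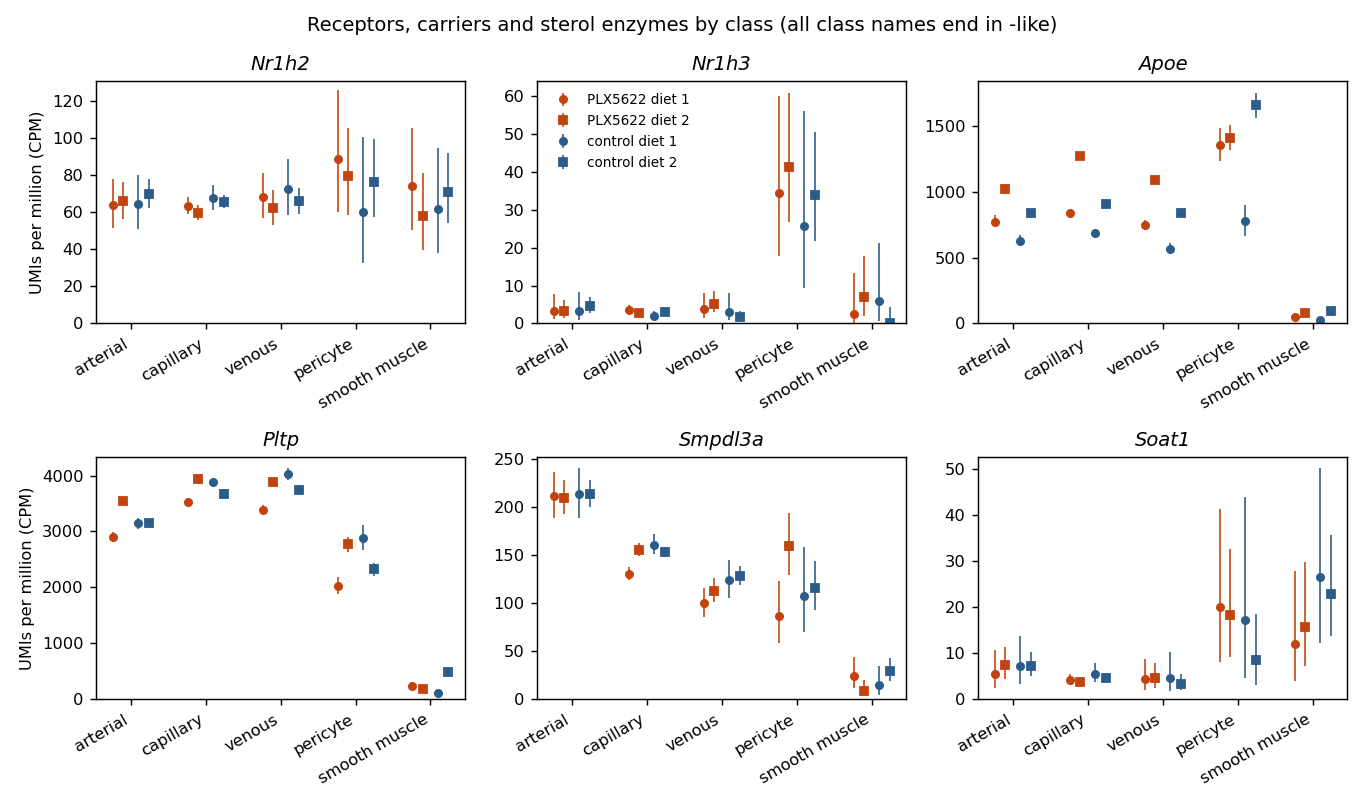
CPM by class and library for Nr1h2, Nr1h3, Apoe, Pltp, Smpdl3a and Soat1, PLX5622 diet in red left of control diet in blue, with exact 95% Poisson intervals that cover counting error only. Nr1h3 is high in pericyte-like cells (25.8 to 41.3 CPM), Smpdl3a steps down from arterial-like to venous-like cells, and Apoe and Pltp are low in smooth muscle-like cells.

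Other targets of LXR did not move as 1 group in endothelial-like cells. Of 12 listed 10 were tested, and 2 were called lower and 1 higher, with a median log2 fold change of -0.09. Among all genes tested 0.399% were called lower and 0.813% higher. At an unadjusted p under 0.05 there were 5 of these 10 targets by each of edgeR, DESeq2 and limma-voom. Of all 12797 genes tested 1357, 714 and 1464 were under that limit by the same tools. Mylip, an E3 ligase that sends the LDL receptor to degradation, had 14.8 and 12.3 CPM on the PLX5622 diet and 29.5 and 30.6 CPM on the control diet. The diets did not overlap, and the log2 fold change was -1.12 ± 0.12 (SE, edgeR adjusted p = 5.87e-05). Mylip was also called lower in capillary-like cells (-1.08 ± 0.14, adjusted p = 0.000137) and venous-like cells (-1.55 ± 0.24, adjusted p = 2.69e-08). Scd1, which desaturates fatty acids, was close to the detection limit, at 0.261 and 0.981 CPM on the PLX5622 diet and 2.99 and 3.31 CPM on the control diet (log2 fold change -2.21 ± 0.39, SE, edgeR adjusted p = 0.00673).

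Fasn, fatty acid synthase, went the other way. It had 9.93 and 10.2 CPM on the PLX5622 diet and 4.84 and 3.90 CPM on the control diet, a log2 fold change of 1.30 ± 0.18 (SE, edgeR adjusted p = 0.000526). Srebf1, the transcription factor for fatty acid synthesis, had 27.8 and 24.9 CPM on the PLX5622 diet and 22.1 and 20.4 CPM on the control diet and did not pass (edgeR adjusted p = 0.172). Gramd1b, which carries sterol from the cell surface to the endoplasmic reticulum, had 0.979 and 1.17 CPM on the PLX5622 diet and 3.34 and 2.34 CPM on the control diet and did not pass (edgeR adjusted p = 0.0723). In venous-like cells 2 of 7 tested targets were called higher, Fasn and Tgm2, where 1.25% of all genes were called higher. There 1 target, Mylip, was called lower, where 0.46% of all genes were. Tgm2, a transglutaminase named because it completes that count, had 345 and 304 CPM there on the PLX5622 diet and 245 and 202 CPM on the control diet.

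Of the enzymes that make or remove oxysterols 2 of 6 were tested in endothelial-like cells and 1 was called higher, where 0.813% of all genes were. Ch25h, which makes 25-hydroxycholesterol, had 22.5 and 31.7 CPM on the PLX5622 diet and 15.1 and 16.4 CPM on the control diet, a log2 fold change of 0.81 ± 0.15 (SE, edgeR adjusted p = 0.00773). Venous-like cells had 129 and 170 CPM on the PLX5622 diet and 28.0 and 40.8 CPM on the control diet (log2 fold change 2.03 ± 0.15, SE, edgeR adjusted p = 3.37e-34). The venous markers that differed by diet in these sums are given above with the exporters. Capillary-like cells had 6.73 and 8.01 CPM on the PLX5622 diet and 13.3 and 9.24 CPM on the control diet, which did not pass (edgeR adjusted p = 0.327). Hsd3b7, an enzyme of oxysterol breakdown, had 39.9 and 31.3 CPM on the PLX5622 diet and 36.2 and 33.4 CPM on the control diet and did not pass.

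Partners and coregulators of the receptors gave 0 calls among 11 tested of 12, with a median log2 fold change of -0.05, and DESeq2 and limma-voom also called 0. By unadjusted p under 0.05 the count was 0. The deacetylase Hdac3 had 19.3 and 18.2 CPM on the PLX5622 diet and 23.03 and 22.003 CPM on the control diet (edgeR adjusted p = 0.524). Other carriers, exporters and esterases likewise gave 0 calls among 11 tested of 13, with a median of 0.15, and 2 at an unadjusted p under 0.05. Here too DESeq2 and limma-voom called 0. Of all 12797 genes tested 1357 had an unadjusted edgeR p under 0.05. Apod, a lipid-binding lipocalin, had 127 and 197 CPM on the PLX5622 diet and 99.3 and 108 CPM on the control diet (edgeR adjusted p = 0.353), and was called higher in venous-like cells (log2 fold change 0.77 ± 0.12, SE, adjusted p = 4.45e-08). Npc2, which carries cholesterol in lysosomes, had 152 and 181 CPM on the PLX5622 diet and 136 and 151 CPM on the control diet (edgeR adjusted p = 0.407). These lists were chosen with earlier results of the same data known.

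**Figure D5:**
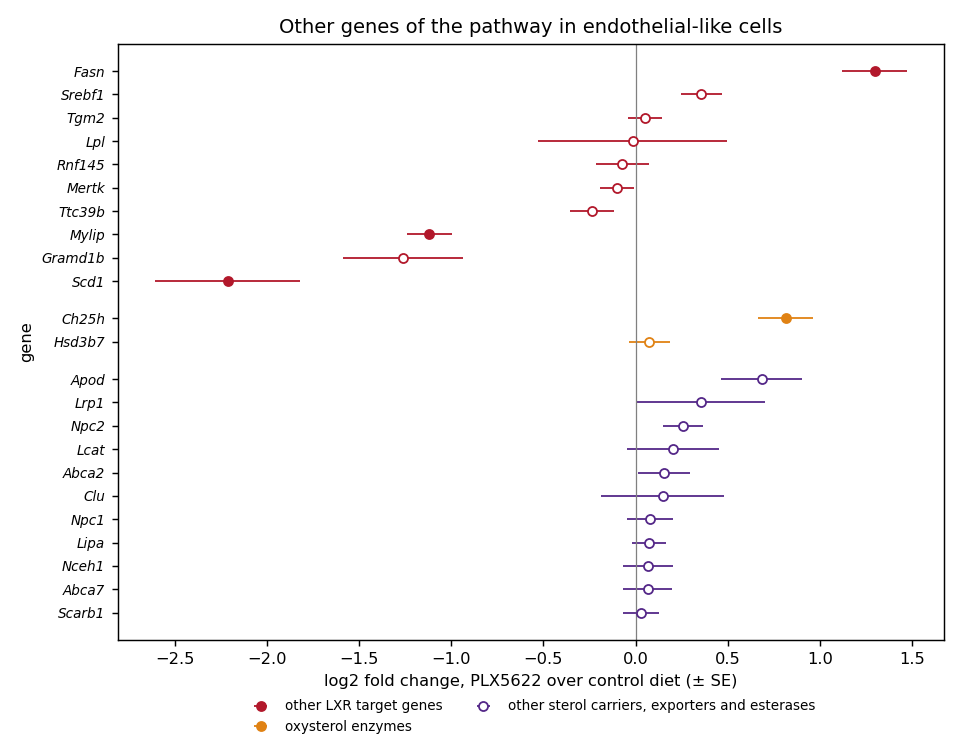
Log2 fold change of PLX5622 over control diet, with SE, for tested genes of 3 lists around LXR in endothelial-like cells (other targets, oxysterol enzymes, and other carriers, exporters and esterases); filled points have an edgeR adjusted p under 0.05. Filled points are Mylip (-1.12) and Scd1 (-2.21) on the lower side and Fasn (1.30) and Ch25h (0.81) on the higher side.

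The genes whose pattern was most like each member were sought over 20 sums, 5 classes in 4 libraries, among 6593 genes of at least 20 CPM, by Pearson correlation of log2(CPM + 1). The sums of a library share its depth and mice, so the values are descriptions. Genes among those most like Abca1 were Fam181b (0.84) and Xpr1 (0.83). Abcg1 was most like St6gal1 (0.79), Rab4a (0.77) and Car4 (0.75), of which Car4 is a marker used here for capillary cells. Each of these, Car4 included, had its highest mean of the 5 classes in venous-like cells. Nr1h3 was most like Slc6a13, Abcc9 and Dcn (0.90, 0.90 and 0.89), which are markers used here for fibroblasts and pericytes.

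Pltp was most like the tight junction gene Cldn5, the drug exporter gene Abcb1a and Arl2bp (all 1.00 after rounding), which are high in every endothelial zone. Smpdl3a was most like Plcb1, S1pr1 and Mcc (0.99, 0.98 and 0.98). Apoe was most like Plod1, Ifnar2 and Eif2ak2 (0.96, 0.96 and 0.95). Nr1h2 was most like Smg6, Trim35 and Ap2s1 (0.78, 0.76 and 0.75), and Lpcat3 was most like Cuedc1, Bap1 and Cnot10 (0.79, 0.78 and 0.78).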

How the data were processed

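Raw UMI counts per gene and barcode were deposited for all 4 libraries without cell calling, per the file headers, which name Cell Ranger 4. The submitters' processing notes list Cell Ranger 6.0.1, Seurat 4.0, mm10 and mm39 without saying what each served for. The build and annotation behind the counts, and their use of strand, are not given in the sources used here. Lpcat3 and Emg1, Pltp and Ctsa, Soat1 and Gm37648, and Nr1h3 and Gm23390 overlap on opposite strands. Whether their reads were told apart by strand is therefore not known here. Abcg1 and Gm25447, and Nr1h3 and Gm13783, overlap on the same strand, so their counts are also uncertain. GENCODE M21 on GRCm38, which holds 32158 of the 32285 gene identifiers, gave coordinates only. Cells were clustered (2000 variable genes, 30 components, 15 neighbours, Leiden at 0.5, igraph 0.11.9) without 53 LXR genes. Endothelial-like cells were clustered again with 20 components. In that step response genes (cell cycle, MHC class I, interferon, early response, heat shock, hypoxia, sterol and fatty acid genes) were also left out. Clusters were named by markers, with thresholds set after seeing the clusters and before any diet test, and 413 shallow cells stayed unnamed. Droplets with more than 1 cell were not removed, and an alternative leaves out the 745 cells with the highest doublet scores. UMIs were summed per library and class and tested with edgeR 4.0.16 (R 4.3.3; TMM, its filter on low counts, robust quasi-likelihood, two-sided at 0.05). DESeq2 1.42.0 and limma 3.58.1 were alternatives, and the code was tested on simulated data. The members and lists were chosen with earlier results of these data known. Named were all members, the called genes of each list and up to 2 more with the smallest p. Some genes that this rule or the likeness ranking would name are not reported here.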

Additional observations from a re-analysis of the deposited data

Results flagged for a closer look

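The diet effect on Abca1 differed between arterial-like and capillary-like endothelial cells by a test of the difference itself. The value was 0.78 ± 0.18 (log2, SE, edgeR adjusted p = 0.0142), with a log2 fold change of -0.52 in arterial-like and -1.26 in capillary-like cells. The mean level in arterial-like cells over that in capillary-like cells was 2.48 (ratio) on the PLX5622 diet and 1.58 on the control diet. Smooth muscle markers in the arterial-like sums were at 118 and 150 CPM on the PLX5622 diet and 67.7 and 113 CPM on the control diet, and arterial markers at 3530 and 3642 CPM on the PLX5622 diet and 2377 and 3425 CPM on the control diet. Capillary markers were at 6558 and 7026 CPM on the PLX5622 diet and 7889 and 6978 CPM on the control diet. The part of these in the difference was not tested. Without PLX5622 library 2 the value was 0.45 (edgeR adjusted p = 0.970) and without control library 2 it was 0.56 (edgeR adjusted p = 0.4998), while it passed without either of the other libraries and with limma-voom, from 0.81 to 0.97.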

How the results depend on the processing

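Abca1 and Abcg1 kept their direction and passed the threshold in endothelial-like cells under all 17 alternatives and in capillary-like and venous-like cells under all 15, with log2 fold changes in endothelial-like cells from -1.36 to -0.96 and from -1.74 to -1.11. The counts of all genes called moved more. The library left out changed them from 165 to 423 in endothelial-like (155 in the main fit), 16 to 124 in arterial-like (29), 93 to 176 in capillary-like (152), 91 to 186 in venous-like (171), 6 to 32 in pericyte-like (0) and 1 to 144 in smooth muscle-like cells (0). The same gave 5 to 37 (44) for arterial-like minus capillary-like, 14 to 68 (58) for venous-like minus capillary-like, 0 to 3 (0) for pericyte-like and 1 to 40 (0) for smooth muscle-like minus endothelial-like cells. With 1 library in a diet, that library is assumed to vary like the others. With no filter on low counts the calls were 355 in endothelial-like, 45 in arterial-like, 275 in capillary-like, 5 in pericyte-like and 14 in smooth muscle-like cells. DESeq2 called 6 in arterial-like, 92 in capillary-like and 54 in venous-like cells. Pericyte-like cells gave 2 calls at 5% mitochondrial UMIs, and smooth muscle-like cells gave 1 with 10 counts in every library, 2 without likely doublets and 3, chosen after seeing the data, in cells with few endothelial UMIs. The labels do not say whether equal replicate numbers share mice. Deviations from the diet means were hardly correlated between equal numbers (r = 0.04 across genes, 1 value for 2 pairs). With 2 libraries per diet this value cannot settle whether the libraries are paired. With a replicate block the calls were 88 in arterial-like, 323 in capillary-like and 2 in pericyte-like cells. Members that did not pass changed sign in places. Weighting the 3 zones equally gave 0.18 for Arl4c and -0.033 for Pltp, library totals gave -0.018 for Pltp and -0.037 for Apoe in smooth muscle-like cells, and subtraction of free RNA gave -0.12 for the last. Leaving out a library gave -0.36 to 0.072 for Arl4c, -0.14 to 0.049 for Lpcat3, -0.058 to 0.11 for Pltp and -0.21 to 0.011 for Smpdl3a in endothelial-like cells. It gave -0.26 to 0.91 for Apoe in pericyte-like cells, -0.42 to 1.40 for Apoe in smooth muscle-like cells and -0.27 to 0.058 for the difference of Abca1 between venous-like and capillary-like cells. The causes were not tested. In mural classes 3 to 25 UMIs per library limited what could be seen of Abca1.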

Other observations

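Astrocyte-like cells, 97 in all, were too few to test but carried the most Apoe, at 9793 and 12959 CPM on the PLX5622 diet and 14142 and 11735 CPM on the control diet. They also held more Abca1 than any endothelial zone of the same library, at 84.1 and 108 CPM on the PLX5622 diet and 118 and 175 CPM on the control diet, from 4 to 70 UMIs per library. Abcg1 was at 0 UMIs in the astrocyte-like cells of both PLX5622 libraries and at 1 and 3 UMIs in those of the control libraries. A count of 0 allows up to 63.0 and 14.1 CPM in these PLX5622 libraries (3 counts each), so no fold is given.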
